A study of Homo sapiens with 9 samples.

Results

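The genes of the proteasome, the barrel-shaped protease that degrades proteins tagged with ubiquitin, were followed in the human melanoma line WM3248 after 24 h with ARN22089. ARN22089 is a small molecule made to block the binding of CDC42-family GTPases to their effectors. The cells received 0 µM (untreated cells given only the solvent DMSO), 4 µM or 6 µM, and RNA selected for poly-A tails was sequenced from 3 libraries at each dose, 9 in all. The genes were chosen by name alone: every protein-coding gene whose symbol starts with PSMA, PSMB, PSMC, PSMD, PSME, PSMF or PSMG and a number, with a transcript in at least 1 library. Of 50 such symbols in RefSeq, 48 were assembled, out of 15230 genes named in the series, and all 48 passed the filter on low values (a mean FPKM of 1 or more). PSMA8, an alpha subunit of the testis, and PSMB11, the catalytic subunit of the thymus, were assembled in no library. Of the 48 symbols, PSMC3IP and PSME3IP1 name proteins that interact with a subunit and are not subunits themselves, and they are counted separately where roles are described.

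A proteasome consists of the 20S core, in which outer rings of alpha subunits enclose inner rings of beta subunits, and the 19S regulatory particle, which caps the core, recognises ubiquitin chains and unfolds the substrate with a ring of ATPases. The proteolytic sites lie in PSMB5, PSMB6 and PSMB7. Interferon exchanges these for PSMB8, PSMB9 and PSMB10 in the immunoproteasome, which favours peptides suited for presentation on MHC class I. When the proteasome is inhibited, cells raise most subunit genes together through the transcription factor NFE2L1, and melanoma cells, like other tumour cells, rely on proteasome activity to remove surplus and damaged proteins.

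Levels are FPKM, which count fragments relative to transcript length and library size, summed over all transcripts of a gene. Differences are on the log2(FPKM + 1) scale, with the standard error and the adjusted p of limma over the 12383 genes that passed the filter. The labels do not say whether the 3 libraries at a dose are separate cultures. The p-values therefore reflect the spread among these libraries alone, and that spread may be technical. In bulk RNA, fewer expressing cells and less RNA per cell cannot be told apart. Relative depth ran from 0.802 to 1.343 of the median library, while the depth in reads is unknown. All 7 melanocyte markers were assembled. Their levels summed to 404 to 1387 FPKM at 0 µM, 1243 to 2355 FPKM at 4 µM and 1382 to 2051 FPKM at 6 µM. These sums depend strongly on S100B, which alone ran from 97.0 to 1884 FPKM over the 9 libraries. Read over the same bases in every library, S100B ran from 29.4 to 124 FPKM. MLANA ran from 0 to 9.22 FPKM. Of the markers of immune cells and of keratinocytes, 4 of 5 in each list were at 0 in every library, and the fibroblast list of 6 genes summed to between 16.8 and 62.8 FPKM.

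By summed FPKM no proteasome gene passed the test at an adjusted p of 0.05 in any of the comparisons. At 6 against 0 µM, 0 of the 48 were called, where 0.307% of all genes tested were (38 genes). At 4 against 0 µM the counts were 0 of 48, where 0.0646% of all genes were called, and at 6 against 4 µM again 0 of 48, where 0.0565% were. Replicate number was also entered as a block in the fit of summed FPKM, since libraries of 1 number share a date. Again 0 of 48 were called. Of all genes, 0.0162% were called at 4 against 0 µM, 0.0323% at 6 against 0 µM and 0.00808% at 6 against 4 µM (2, 4 and 1 genes). At an unadjusted p under 0.05, PSMB8 and PSMD7 were higher at 6 µM than at 0 µM, 2 of 48 genes where 7.98% of all genes were, and PSMC3 and PSMD11 were lower, again 2 of 48 where 9.67% of all genes were. At 4 against 0 µM PSMB5, PSMB8 and PSMD7 were higher, 3 of 48 where 6.23% of all genes were, and 0 were lower, where 4.64% were. At 6 against 4 µM PSMD11 was lower, 1 of 48 where 2.93% of all genes were, and 0 were higher, where 1.73% were. The median log2 difference of the 48 genes was -0.01 at 4 against 0 µM and -0.09 at 6 against 0 µM, beside a median of -0.00 and -0.03 over all genes tested. Differences above 0 were found for 24 of the 48 genes at 4 µM, against 49.4% of all genes, and for 15 of the 48 at 6 µM, against 46.2% of all genes. The sign depends on the scaling: with values rescaled to TPM, which moved the median of all genes at 6 against 0 µM to 0.23, 40 of the 48 were above 0. Below the median of all genes lay 29 of the 48 by FPKM and 26 by TPM.

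These data bound the change for part of the family. For 19 of the 48 genes (39.6%) the 95% interval of the difference at 6 against 0 µM lay within 1.5-fold in either direction, where 19.4% of all genes tested had so narrow an interval around 0. For the others the interval allows a larger change, and a p that misses the threshold does not show that their levels were alike. Groups that did not overlap at 6 against 0 µM were seen for 3 higher genes (PSMB8, PSMD7 and PSME1), 6.25% of the family beside 10.9% of all genes. They were seen for 5 lower genes (PSMA2, PSMC3, PSMC3IP, PSMD11 and PSME3), 10.4% beside 14% of all genes. Neither share exceeded that of all genes tested.

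**Figure D1:**
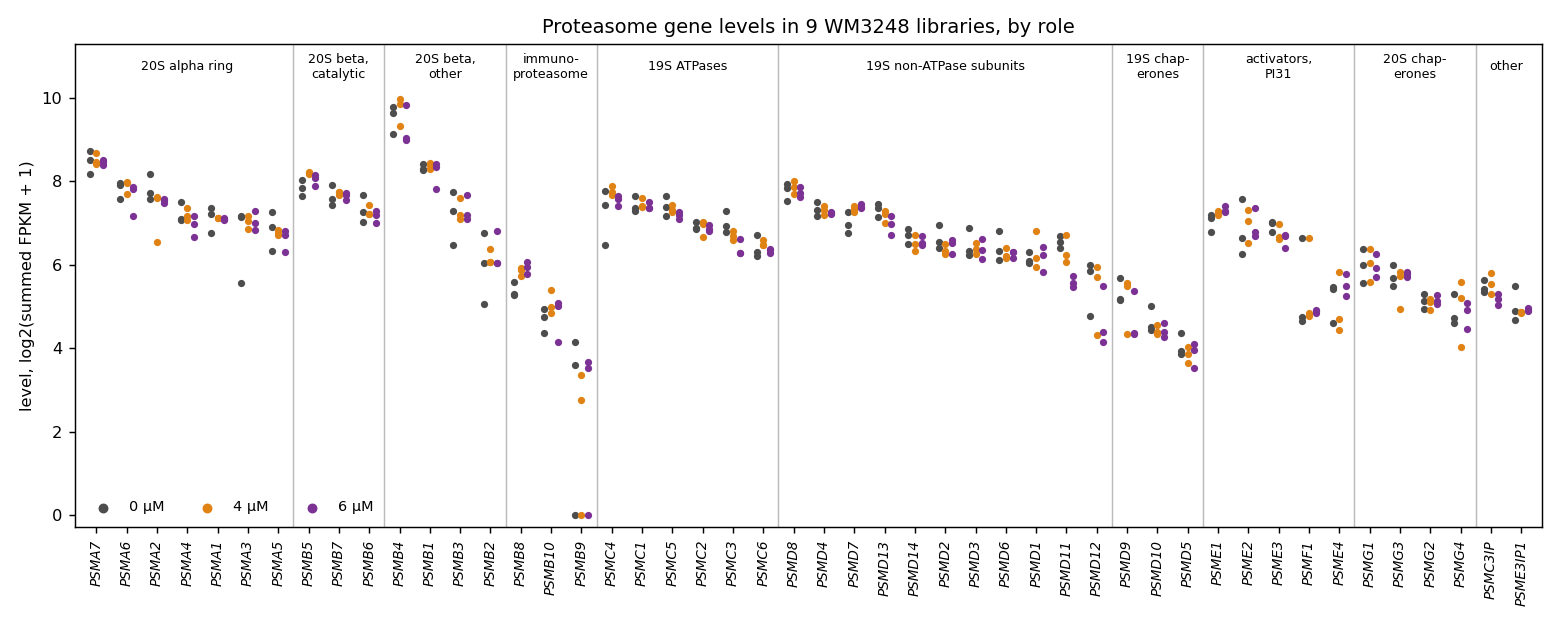
Level of each of the 48 genes in each library as log2(summed FPKM + 1), coloured by dose and grouped by role, with the gene of highest mean first in each group. PSMB4 lies above all others, the medians of the immunoproteasome genes and of the chaperones are below those of the core and the 19S subunits, with overlap of single genes, and PSMB9 is at 0 in 1 library of each dose.

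By summed FPKM the core was the most abundant group. The 14 constitutive 20S genes had a median level of 175 FPKM (mean over the 9 libraries for each gene, range 73.3 to 751), and the 17 genes of the 19S particle a median of 106 FPKM (range 39.8 to 221). The 4 chaperones that assemble the 20S core (PSMG1 to PSMG4) had a median of 42.2 FPKM, and the 3 chaperones of the 19S base (PSMD5, PSMD9 and PSMD10) one of 21.9 FPKM. By the union exon value, read over the same bases in every library, the 20S and 19S medians were 110 and 89.5 FPKM. The alpha genes alone were level with the 19S ATPases in summed FPKM (140 and 139 FPKM). By the union exon value they were below them (93.9 and 102 FPKM). The highest gene was PSMB4, a beta subunit without a catalytic site, at 795, 566 and 879 FPKM in the libraries at 0 µM, 642, 932 and 1003 FPKM at 4 µM and 511, 522 and 913 FPKM at 6 µM. All 3 doses overlapped, and the libraries of 1 dose spanned as wide a range as the doses did. Second came PSMA7, an alpha subunit, at 423, 291 and 363 FPKM at 0 µM, 354, 407 and 344 FPKM at 4 µM and 335, 365 and 353 FPKM at 6 µM. Its log2 difference at 6 against 0 µM was -0.02 ± 0.16 (SE). At the low end stood PSMB9 and PSMD5. The chaperone PSMD5 had 19.6, 14.4 and 13.4 FPKM at 0 µM, 13.4, 11.4 and 15.2 FPKM at 4 µM and 16.1, 10.5 and 14.4 FPKM at 6 µM, again with overlap of all doses.

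Within the 20S core, 1 of the 7 alpha genes was above 0 at 6 against 0 µM and 6 were below it, with a median log2 difference of -0.20, although by TPM all 7 were above 0. Set against the median of all genes, 4 of the 7 were lower by either scaling. The 7 constitutive beta genes were split by summed FPKM, 4 above and 3 below, while 1 was above and 6 below by the union exon value and all 7 were above 0 by TPM. The catalytic subunit PSMB5, which carries the chymotrypsin-like site that bortezomib inhibits, had 199, 227 and 259 FPKM at 0 µM, 290, 301 and 296 FPKM at 4 µM and 237, 269 and 286 FPKM at 6 µM. Every library at 4 µM exceeded every library at 0 µM, a log2 difference of 0.38 ± 0.14 (SE) with an adjusted p of 0.404 by limma, and 4 of the 48 genes (8.33%) were separated this way at 4 µM, beside 9.76% of all genes. By summed FPKM the reverse, every library at 4 µM below every one at 0 µM, was seen for 0 of the 48, beside 8.4% of all genes. By the union exon value the PSMB5 groups overlapped at 4 against 0 µM, with a difference of 0.29 ± 0.14. At 6 µM the summed difference was 0.21 ± 0.14 and the groups overlapped. PSMB6, with the caspase-like site, had 203, 130 and 152 FPKM at 0 µM, 174, 149 and 149 FPKM at 4 µM and 145, 128 and 155 FPKM at 6 µM. PSMB7, with the trypsin-like site, had 242, 171 and 189 FPKM at 0 µM, 202, 215 and 215 FPKM at 4 µM and 204, 209 and 186 FPKM at 6 µM. The lowest and the highest library at 0 µM bracketed all treated libraries for PSMB7 and all but 1 for PSMB6, and the log2 difference at 6 µM was 0.01 ± 0.15 for PSMB7 and -0.16 ± 0.18 for PSMB6.

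In the 19S particle, 14 of 17 genes were below 0 at 6 against 0 µM, with a median log2 difference of -0.11, whereas by TPM 4 of 17 were. Below the median of all genes lay 13 of the 17 by FPKM and 11 by TPM, and 15 by the union exon value, which reads every library over the same bases of a gene (14 after rescaling that value to TPM). The ATPase gene PSMC3 had 157, 110 and 122 FPKM at 0 µM, 103, 95.2 and 112 FPKM at 4 µM and 76.8, 76.9 and 97.7 FPKM at 6 µM. All 3 libraries at 6 µM lay below all 3 at 0 µM, and the libraries at 4 µM lay between, with overlap on both sides. PSMC3 had a log2 difference of -0.62 ± 0.17 at 6 µM (SE; adjusted p = 0.125, limma) and -0.31 ± 0.17 at 4 µM (adjusted p = 0.538, limma). It did not pass the threshold, and its 95% interval at 6 µM ran from -1.01 to -0.22. PSMD7, a lid subunit that pairs with the deubiquitinase PSMD14, had 108, 123 and 153.2 FPKM at 0 µM, 161, 168 and 153.5 FPKM at 4 µM and 174, 163 and 166 FPKM at 6 µM. Treated libraries were all above the untreated ones in summed FPKM, by a log2 difference of 0.40 ± 0.15 at 6 µM (adjusted p = 0.218, limma). At 4 µM replicate 3 was nearly level with replicate 3 at 0 µM. By the union exon value the groups overlapped, with a difference of 0.17 ± 0.21. By the consensus exon value, read over bases that 50% or more of the libraries covered, PSMD7 was higher without overlap at 6 µM but not at 4 µM. At 6 µM this held for 3 of the 48 genes (6.25%), beside 12.1% of all genes. By that value 0 of the 48 passed the test at 6 against 0 µM, beside 4.11% of all genes. PSMD14 itself had a log2 difference of -0.14 ± 0.15 at 6 µM.

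**Figure D2:**
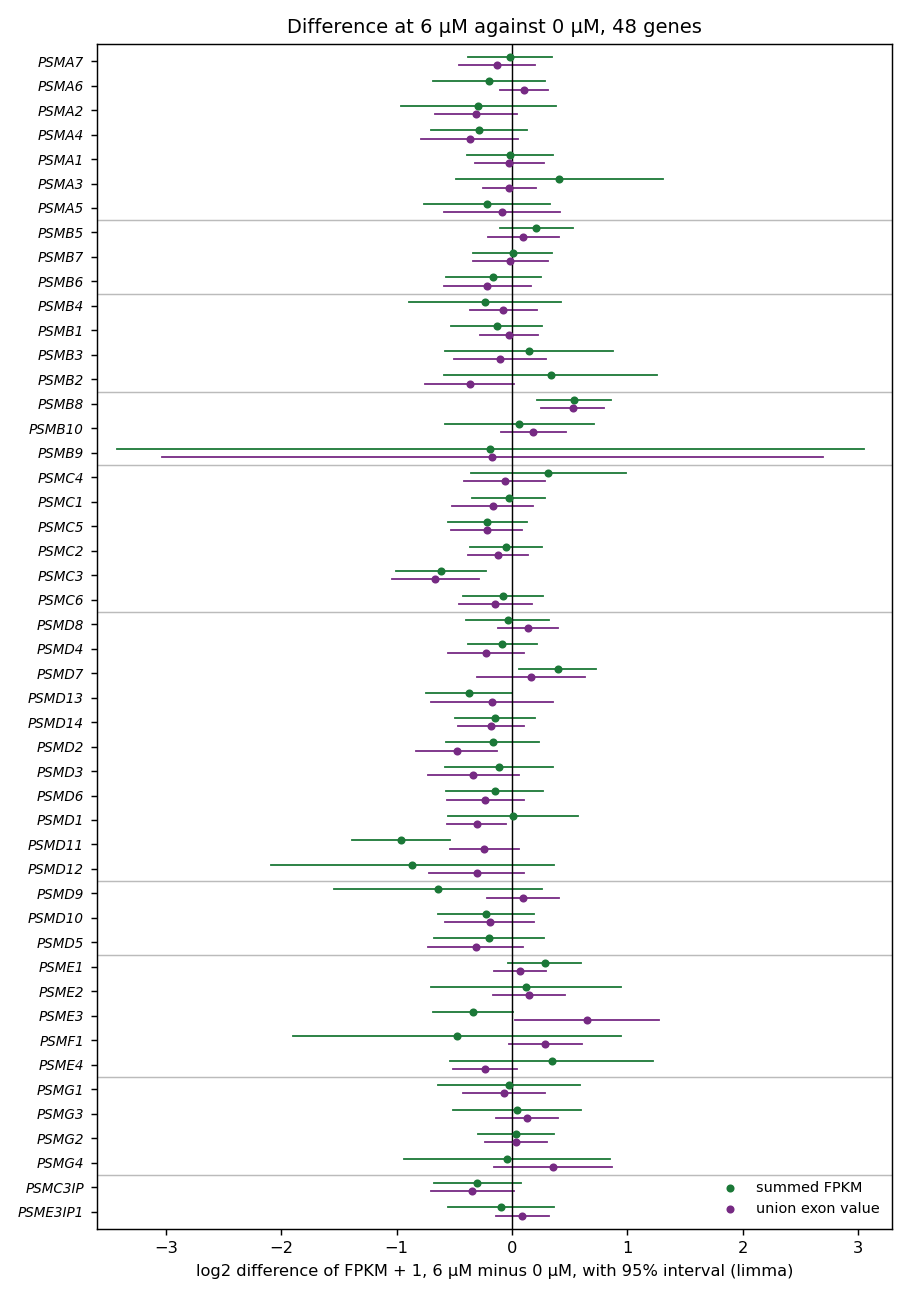
Log2 difference of FPKM + 1 at 6 µM minus 0 µM for the 48 genes, in the role groups of the plot of levels, with the 95% interval of limma, for the summed FPKM and for the union exon value. With the union exon value only PSMB8 passed the test (0.53), PSMB9 has the widest interval, and PSME3, PSMF1, PSMD9, PSMD11 and PSMB2 move the most between the values.

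How far the last exon was assembled differed from library to library, and the FPKM moved with it. PSMF1, which encodes PI31, a regulator that binds the core, shows this most plainly. Its only transcript had 7 exons in all 9 libraries. It spanned 996 bases in replicate 1 at 0 µM and 952 bases in replicate 1 at 4 µM, where the level was 99.4 and 98.8 FPKM. In the other 7 libraries it spanned between 4342 and 4912 bases, and the level lay between 24.3 and 29.3 FPKM, 6 µM included. PSMD12, a lid subunit, divided likewise. Transcripts of 1336 to 1393 bases gave 57.1 and 62.9 FPKM at 0 µM, 50.9 and 61.2 FPKM at 4 µM and 44.3 FPKM at 6 µM. Those of 4364 to 4421 bases gave 26.3 FPKM at 0 µM, 18.9 FPKM at 4 µM and 16.6 and 20.0 FPKM at 6 µM. The long form was assembled in 1 library each at 0 and 4 µM and in 2 at 6 µM, and every library with it was below every library with the short form. The summed difference at 6 against 0 µM was -0.86 ± 0.54 (SE; adjusted p = 0.437, limma). For the 15 genes whose main transcript was at least 2 times as long in 1 library as in another, the highest library exceeded the lowest by a median of 2.62 times, and for the other 33 genes by 1.61 times.

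**Figure D3:**
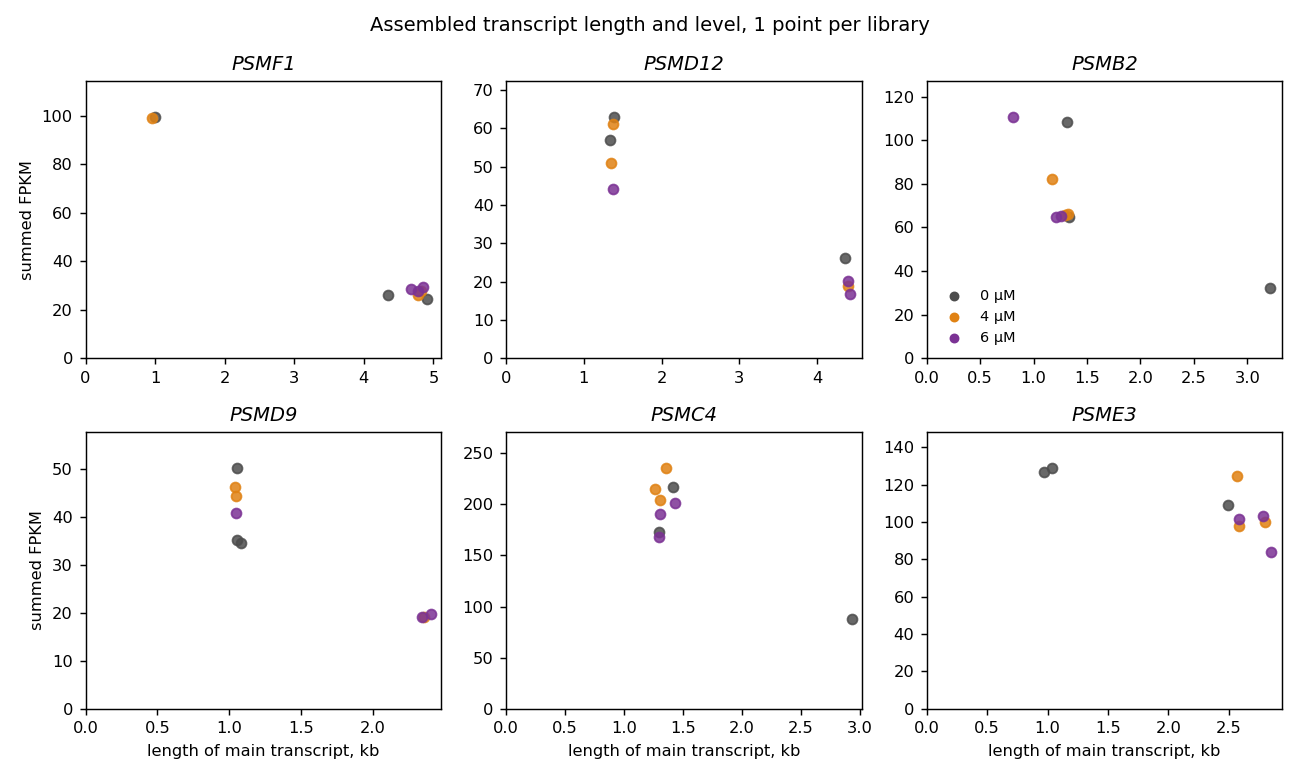
Length of the main assembled transcript in kb (x) and summed FPKM (y) of 6 genes whose exon number was the same in all libraries, 1 point per library, coloured by dose. In PSMF1, PSMD12, PSMD9, PSMB2 and PSMC4 the libraries with the longest transcript have the lowest FPKM.

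A value less bound to the assembled ends was therefore added after the data had been seen. The union exon value divides the FPKM over all bases that any library covered with exons of the gene, so that each library is read over the same length. It can lower a gene in a library whose last exon was assembled short. With it the median spread within a dose (SD of log2 levels) of the 48 genes was 0.18, beside 0.22 with the summed value, and the 15 genes above had a ratio of highest to lowest library of 1.51. PSMD12 then differed by -0.30 ± 0.18 at 6 against 0 µM. PSMD9, a 19S chaperone, differed by -0.64 ± 0.40 in summed FPKM and by 0.10 ± 0.14 in the union value. For PSMF1 the pair of differences was -0.47 ± 0.62 and 0.29 ± 0.14, for the alpha subunit PSMA3 it was 0.41 ± 0.39 and -0.02 ± 0.10, and for the beta subunit PSMB2 0.34 ± 0.40 and -0.37 ± 0.17. PSME4, which encodes the nuclear activator PA200, gave 0.35 ± 0.39 and -0.23 ± 0.12. None of these 6 genes had an adjusted p under 0.05 by either value in limma.

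The summed levels of these genes follow the same pattern library by library. PSMD9 had 50.2, 34.5 and 35.1 FPKM at 0 µM, 44.4, 46.3 and 19.2 FPKM at 4 µM and 19.7, 40.7 and 19.1 FPKM at 6 µM, and the 3 low libraries are those with a transcript of 2342 to 2407 bases in place of 1043 to 1083. PSMA3 had 141, 142 and 46.6 FPKM at 0 µM, 144, 115 and 132 FPKM at 4 µM and 127, 113 and 155 FPKM at 6 µM, the low library being the one with a transcript of 2900 bases. An antisense gene at the same locus, PSMA3-AS1, was assembled in all libraries at 19.7 to 80.4 FPKM, and no source used here says whether strand was kept, so reads of the pair cannot be told apart with certainty. PSMB2 had 108, 32.3 and 64.7 FPKM at 0 µM, 65.9, 82.1 and 66.2 FPKM at 4 µM and 64.7, 65.1 and 111 FPKM at 6 µM, again lowest where the transcript was longest (3209 bases). PSME4 had 23.2, 43.5 and 41.8 FPKM at 0 µM, 20.6, 56.1 and 25.0 FPKM at 4 µM and 54.3, 37.1 and 43.99 FPKM at 6 µM. It was lowest in the 3 libraries with the complete form of 47 exons and higher where the gene was assembled in fragments. PSME3, the nuclear activator REG gamma, reversed the other way, with a log2 difference at 6 against 0 µM of -0.34 ± 0.15 in summed FPKM and 0.65 ± 0.27 in the union value (adjusted p = 0.296 and 0.176, limma). Replicates 1 and 2 at 0 µM held its short forms of 966 and 1039 bases.

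PSMD11, a scaffold subunit of the lid, had the lowest difference at 6 against 0 µM in summed FPKM. It stood at 83.9, 102 and 92.6 FPKM at 0 µM, 74.0, 66.0 and 104 FPKM at 4 µM and 43.4, 45.9 and 52.2 FPKM at 6 µM, and no library at 6 µM reached the others. The log2 difference was -0.96 ± 0.19 at 6 against 0 µM (SE; adjusted p = 0.0643, limma). In these 3 libraries its 14-exon transcript was 3657 to 3880 bases long, against 2724 to 3010 bases in the libraries at 0 µM. The number of transcripts summed differed too. Replicates 2 and 3 at 0 µM held 2 transcripts, and the 14-exon one carried 54.3 and 49.7 FPKM there (53.4% and 53.7%). Each library at 6 µM held 1 transcript, as did replicate 1 at 0 µM. How far this made the summed difference was not tested. In the union value PSMD11 had 58.6, 45.0 and 51.3 FPKM at 0 µM, 45.1, 43.7 and 36.0 FPKM at 4 µM and 41.2, 42.5 and 46.7 FPKM at 6 µM. There the groups overlapped, with a difference of -0.24 ± 0.13 (adjusted p = 0.286, limma). The consensus exon value, read over bases that 50% or more of the libraries covered, kept the groups apart. By it, all libraries at 4 µM and at 6 µM were below all those at 0 µM for PSMD11. The unadjusted p of limma was under 0.05 at both doses, but PSMD11 did not pass the test on adjusted p. PSMC3 kept its size in the summed and union values, at -0.66 ± 0.16 in the union value (adjusted p = 0.0524, limma). Its adjusted p by limma was 0.0498 once replicate number entered the union fit as a block, where 8.26% of all genes were called.

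The libraries at 0 µM stood apart from each other across the family. In the union value, replicate 1 at 0 µM was the highest of its dose for 29 of the 48 genes and replicate 2 the lowest for 34. Of all genes tested, 44.4% were highest in replicate 1 and 31.7% lowest in replicate 2. The median log2 deviation of the 48 genes from their dose mean was 0.16 in replicate 1 and -0.17 in replicate 2, while that of all genes was 0.02 and -0.01. At 4 and 6 µM these medians ran from -0.07 to 0.08, and replicate 3 at 4 µM was the highest of its dose for 32 of the 48 genes, where 42.6% of all genes were. By summed FPKM the deviations of replicates 1 and 2 at 0 µM were 0.17 and -0.19. The median difference of the family at 6 against 0 µM was -0.00 without replicate 1 at 0 µM and -0.20 without replicate 2, both by summed FPKM. What set these libraries apart was not tested.

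**Figure D4:**
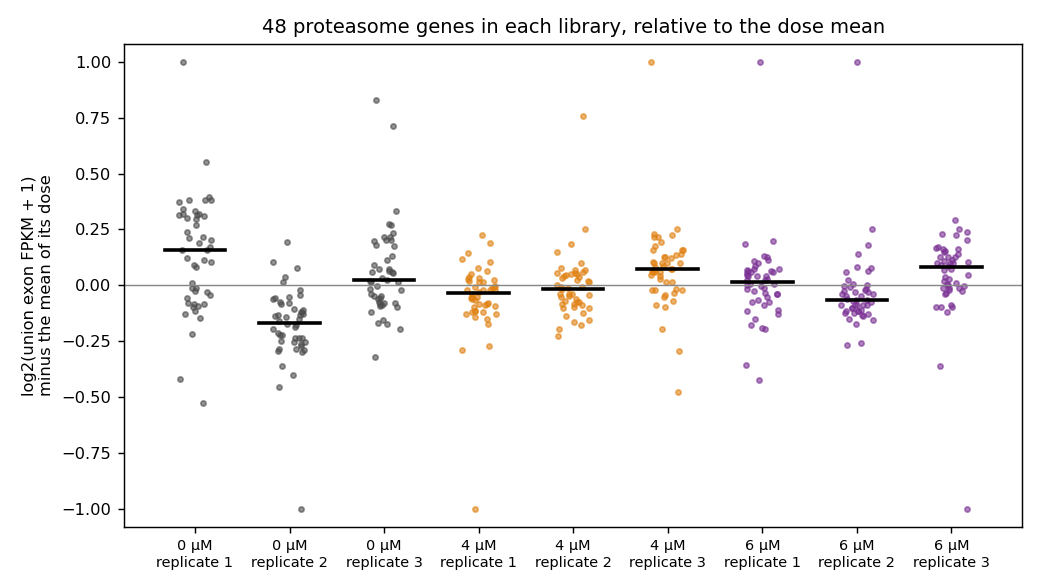
Log2(union exon FPKM + 1) of each of the 48 genes minus the mean of its dose, by library, with a line at the median of the 48. Replicate 1 at 0 µM (median 0.16) and replicate 2 at 0 µM (median -0.17) stand furthest apart, and values of PSMB9 beyond 1 in either direction are drawn at the edge.

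The immunoproteasome gene PSMB8 (GRCh38 chromosome 6, 32840717 to 32844679, minus strand) had the highest difference at 6 against 0 µM by summed FPKM. By the union and consensus exon values PSME3 stood above it. By the consensus exon value a gene of the 19S particle outside the ATPase ring (0.55) did too, beside 0.53 for PSMB8. The catalytic product of PSMB8, also called LMP7, replaces PSMB5. PSMB8 stood at 37.9, 38.6 and 47.0 FPKM at 0 µM, 57.9, 59.4 and 52.6 FPKM at 4 µM and 65.7, 54.1 and 60.7 FPKM at 6 µM. All treated libraries were above all untreated ones, and the 2 treated doses overlapped. Means were 41.2 ± 5.07, 56.6 ± 3.58 and 60.2 ± 5.84 FPKM (SD, n = 3 each). The log2 difference was 0.54 ± 0.14 at 6 against 0 µM (SE; adjusted p = 0.108, limma) and 0.45 ± 0.14 at 4 against 0 µM (adjusted p = 0.369, limma), so by summed FPKM PSMB8 did not pass the test. By the union exon value it had 29.2, 28.7 and 35.2 FPKM at 0 µM, 43.8, 44.2 and 39.98 FPKM at 4 µM and 49.4, 40.4 and 45.6 FPKM at 6 µM. That value rose by 0.53 ± 0.12 at 6 against 0 µM with an adjusted p of 0.0434 by limma, where 5.97% of all genes were called (2.32% higher) and 1 of the 48. That background rests on single libraries: the 720 genes called became 11 without replicate 1 at 6 µM, 31 without replicate 2 at 6 µM and between 101 and 661 without any other library. The call of PSMB8 was lost without any 1 of the 9 libraries in turn, at adjusted p-values of 0.0538 to 0.144, with the replicate block (adjusted p = 0.0501, limma) and with rescaling to TPM (adjusted p = 0.097, limma).

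PSMB8 is transcribed from a pair of start sites that give proteins with different first exons, at position 32844679 (distal) and 32844047 (proximal) in RefSeq. Both were found in the assemblies, with assembled starts within 60 bases of them. Transcripts from the proximal site held 26.6, 29.0 and 38.2 FPKM at 0 µM, 42.6 and 46.9 FPKM in replicates 1 and 2 at 4 µM and 49.9, 41.9 and 47.4 FPKM at 6 µM. Those from the distal site held 11.28, 9.60 and 8.86 FPKM at 0 µM, 15.3 and 12.4 FPKM in replicates 1 and 2 at 4 µM and 15.8, 12.1 and 13.3 FPKM at 6 µM. Both were higher in every treated library just named than in every library at 0 µM, and the proximal transcripts were the more abundant ones. In replicate 3 at 4 µM no transcript began at the proximal site. A transcript of 7 exons from the distal site carried 44.7 FPKM there and one of 6 exons 7.83 FPKM, so that the division between the sites cannot be read in that library.

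The stretches around these start sites are shown because the assembled PSMB8 transcripts begin there. Each runs from 150 bases before the start to 10 bases into the transcript, in the RefSeq sequence of GRCh38.p14 on the minus strand, at chr6:32844670-32844829 for the distal and chr6:32844038-32844197 for the proximal site. Capitals mark a match to the core of the interferon-stimulated response element to which IRF factors bind, which is GAAA, then NN, then GAAA, read on either strand.
PSMB8 distal start: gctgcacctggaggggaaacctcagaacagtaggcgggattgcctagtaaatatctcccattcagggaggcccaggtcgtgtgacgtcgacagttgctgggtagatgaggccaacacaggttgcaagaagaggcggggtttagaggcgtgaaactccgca
PSMB8 proximal start: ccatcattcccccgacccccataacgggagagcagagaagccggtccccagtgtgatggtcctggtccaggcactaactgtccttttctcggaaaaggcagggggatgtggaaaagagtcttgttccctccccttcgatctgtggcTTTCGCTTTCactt

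The proximal window holds the match across the start site itself, from 4 bases before it to 6 bases into the transcript, and the distal window holds none. Promoters of 42 of the 48 genes were in the RefSeq table, each from 250 bases before to 50 after a start site. The same core was found in 7 of these 42 genes (16.7%), beside 4.16% of all 15843 genes with a promoter in the table, and in the 250 bases before the start alone in 5 (11.9%), beside 3.60%. The 7 matches are printed with 10 bases on either side, on the strand of the gene. They are shown since 4 of the genes, PSMB8, PSMB10, PSME1 and PSME2, are among those that interferon is known to induce. The promoter of PSMB9, the other catalytic gene of the immunoproteasome, was read too and held no match.
PSMB8 (chr6:32844032-32844061, minus strand): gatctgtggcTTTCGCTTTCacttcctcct
PSMB10 (chr16:67936852-67936881, minus strand): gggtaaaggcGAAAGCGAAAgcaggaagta
PSME1 (chr14:24136189-24136218, plus strand): gccctaccgcTTTCGCTTTCccttcgcggt
PSME2 (chr14:24146619-24146648, minus strand): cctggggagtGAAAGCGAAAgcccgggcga
PSMG4 (chr6:3258904-3258933, plus strand): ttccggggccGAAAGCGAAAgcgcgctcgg
PSMB4 (chr1:151399495-151399524, plus strand): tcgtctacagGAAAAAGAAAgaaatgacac
PSMA4 (chr15:78540155-78540184, plus strand): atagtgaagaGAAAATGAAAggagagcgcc

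Their differences had both signs. Of the 7, only PSMB8 and PSME1 had treated libraries at 6 µM that were all above those at 0 µM, and the summed log2 differences of the others were 0.12 for PSME2, 0.06 for PSMB10, -0.04 for PSMG4, -0.23 for PSMB4 and -0.29 for PSMA4. PSME1 and PSME2, which form the PA28 activator of the immunoproteasome, lie side by side on chromosome 14. PSME1 had 145, 110 and 139 FPKM at 0 µM, 154, 145 and 155 FPKM at 4 µM and 155, 153 and 170 FPKM at 6 µM, a log2 difference of 0.29 ± 0.14 at 6 against 0 µM (SE; adjusted p = 0.323, limma). In the union value it was 0.07 ± 0.10 and the groups overlapped. Shorter motifs were common in all promoters. CCAAT stood in the 250 bases before the start of 20 of the 42 genes (47.6%), beside 40.2% of all genes. The core of the antioxidant response element, TGANNNNGC, which NFE2L1 and NFE2L2 bind, stood in 24 (57.1%), beside 42.4%. A match of letters is a description and does not show a bound site.

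The other immunoproteasome genes were less well measured. PSMB10, which replaces PSMB7, had 19.5, 29.7 and 26.0 FPKM at 0 µM, 40.9, 30.7 and 27.8 FPKM at 4 µM and 16.8, 32.8 and 31.4 FPKM at 6 µM. Its union value was 7.22, 8.26 and 7.90 FPKM at 0 µM, 12.3, 9.66 and 10.3 FPKM at 4 µM and 7.75, 9.55 and 9.77 FPKM at 6 µM, with a difference of 0.41 ± 0.12 at 4 against 0 µM (SE; adjusted p = 0.209, limma) and 0.18 ± 0.12 at 6 against 0 µM. All libraries at 4 µM were above those at 0 µM by that value, while at 6 µM the groups overlapped. This separation at 4 µM was seen for 3 of the 48 genes (6.25%), beside 10.2% of all genes. PSMB9, which replaces PSMB6, was listed at 0 in 1 library of each dose, which can be a failed assembly. The other libraries held 16.7 and 11.2 FPKM at 0 µM, 5.72 and 9.22 FPKM at 4 µM and 11.7 and 10.5 FPKM at 6 µM. Its interval at 6 against 0 µM ran from -3.42 to 3.05, and no difference was detectable at this depth.

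Set against the constitutive subunit that it replaces, PSMB8 amounted to 19.1%, 17.0% and 18.1% of the PSMB5 level in libraries at 0 µM, to 19.9%, 19.7% and 17.7% in those at 4 µM and to 27.7%, 20.1% and 21.2% in those at 6 µM. By summed FPKM the 3 libraries at 6 µM were above all others, whereas by the union exon value the ratio in replicate 2 at 6 µM (18.4%) was below that in replicate 1 at 4 µM (19.7%), and by the consensus exon value likewise (15.9% and 17.1%). The lead over 4 µM was narrow except in replicate 1 at 6 µM, and at 4 µM the ratio overlapped that at 0 µM, since PSMB5 was higher there too. PSMB10 amounted to between 8.06% and 17.3% of PSMB7 at 0 µM, between 12.9% and 20.2% at 4 µM and between 8.20% and 16.9% at 6 µM. These ratios were not tested.

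**Figure D5:**
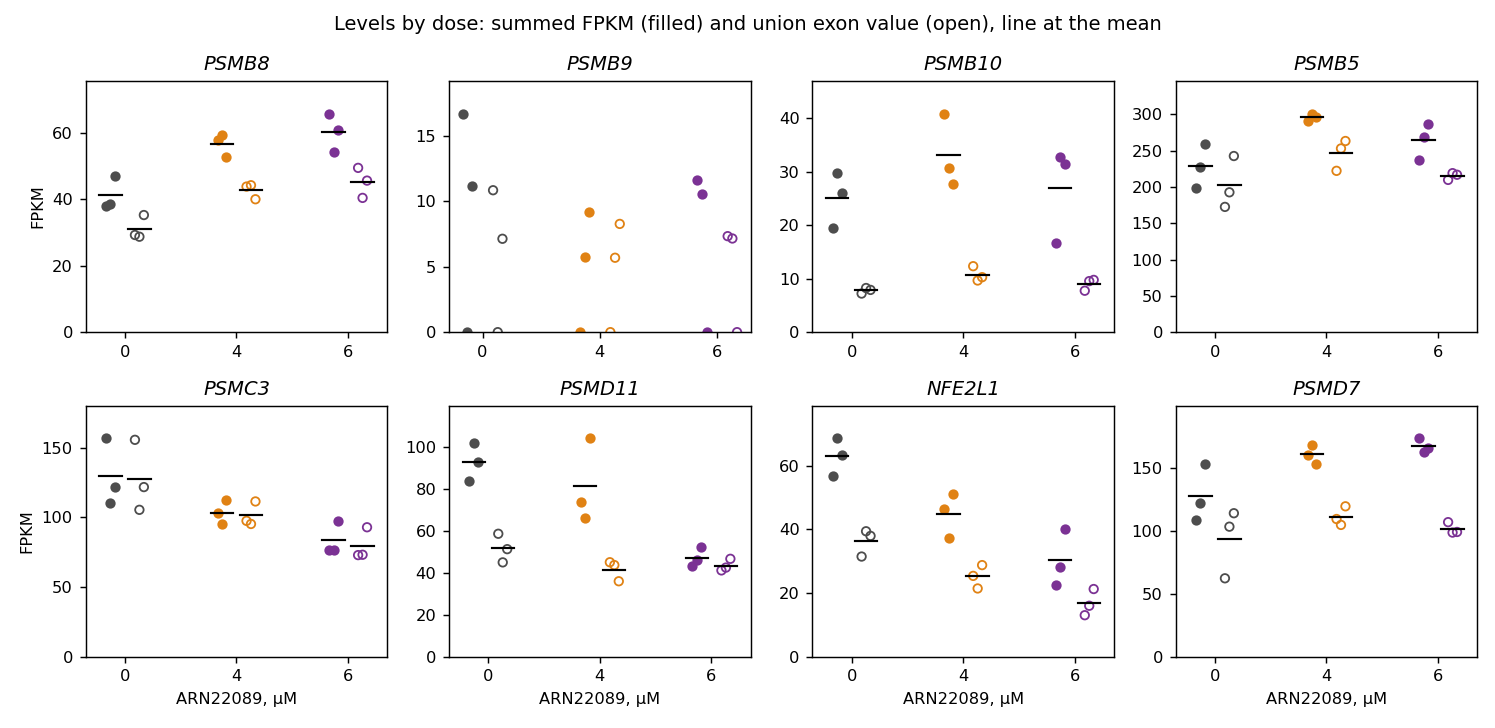
FPKM by dose (x, µM of ARN22089) for PSMB8, PSMB9, PSMB10, PSMB5, PSMC3, PSMD11, NFE2L1 and PSMD7, as summed FPKM (filled) and union exon value (open), 1 point per library, with a line at the mean of 3 libraries where none is at 0. PSMB8 is higher and NFE2L1 and PSMC3 lower in the libraries at 6 µM than in those at 0 µM by both values, while the groups of PSMD11 and PSMD7 are apart in the summed value and overlap in the union exon value.

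Genes that serve the proteasome under other names were read from 5 lists with 43 members, all of them tested. By summed FPKM 0 of the 43 passed at any comparison, and at an unadjusted p under 0.05 there were 5 higher and 7 lower at 6 against 0 µM (7.98% and 9.67% of all genes). By the union exon value 1 was called higher and 1 lower (NFE2L1) of 42 tested at 6 against 0 µM, where 2.32% and 3.65% of all genes were. Among the 12 subunits and assembly factors without a PSM symbol, 5 were above 0 and 7 below at 6 against 0 µM. The highest difference was that of FBXO7, a ubiquitin ligase subunit that binds PI31, with 103, 132 and 132 FPKM at 0 µM, 147, 148 and 150 FPKM at 4 µM and 168, 153 and 145 FPKM at 6 µM. Its groups did not overlap at either dose, and the log2 difference at 6 µM was 0.35 ± 0.14 (SE; adjusted p = 0.241, limma). The lowest difference was that of UCHL5, a deubiquitinase of the 19S base, at -0.79 ± 0.51 (adjusted p = 0.455, limma) with 11.7, 18.7 and 44.5 FPKM at 0 µM, 14.1, 24.1 and 12.6 FPKM at 4 µM and 8.03, 21.2 and 9.96 FPKM at 6 µM. Of the 11 shuttle factors and VCP partners, 5 were above 0 and 6 below by summed FPKM, from 0.14 for ZFAND2B to -0.65 for UFD1. By the union exon value 3 were above 0 and 8 below, and UFD1 differed by -0.11 ± 0.10 (SE).

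NFE2L1 (chromosome 17, 48048359 to 48061545), the transcription factor that induces subunit genes when proteasome activity is short, had 56.9, 68.5 and 63.4 FPKM at 0 µM, 46.3, 37.2 and 51.1 FPKM at 4 µM and 22.6, 28.3 and 40.2 FPKM at 6 µM. Treated libraries were all below untreated ones. The log2 difference was -1.06 ± 0.22 at 6 against 0 µM (SE; adjusted p = 0.0702, limma) and -0.49 ± 0.22 at 4 against 0 µM (adjusted p = 0.47, limma). By the union exon value NFE2L1 fell by 1.09 ± 0.19 at 6 µM with an adjusted p of 0.0285 by limma, and by the consensus exon value (read over bases that 50% or more of the libraries covered) by 1.10 with an adjusted p of 0.0324. The union call held in 4 of 9 fits that left out 1 library and was lost without replicate 2 or 3 at 0 µM, replicate 2 at 4 µM, or replicate 1 or 2 at 6 µM (adjusted p up to 0.111), and rescaling to TPM ended it too (adjusted p = 0.158, limma). The other 6 regulators of subunit transcription in the list did not pass by either value, among them its relative NFE2L2, at 0.25 ± 0.13 at 6 against 0 µM in summed FPKM (adjusted p = 0.338, limma).

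Of the 6 genes for ubiquitin and its activating enzymes, 3 were above 0 and 3 below at 6 against 0 µM. UBB, a polyubiquitin gene that stress induces, had 887, 677 and 683 FPKM at 0 µM, 941, 924 and 895 FPKM at 4 µM and 1083, 1236 and 1039 FPKM at 6 µM. Every treated library was above every untreated one in summed FPKM, a log2 difference of 0.59 ± 0.15 at 6 against 0 µM (SE; adjusted p = 0.106, limma). By the union exon value the difference was 0.34 ± 0.19 (adjusted p = 0.272, limma). Its ubiquitin repeats are nearly identical to those of other genes, so how shared reads were divided is uncertain.

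Of the 7 genes for interferon signalling and peptide transport, which work next to the immunoproteasome, 4 were above 0 and 3 below at 6 against 0 µM. The highest difference was that of B2M, the light chain of MHC class I, with 714, 372 and 607 FPKM at 0 µM, 782, 723 and 556 FPKM at 4 µM and 1139, 816 and 694 FPKM at 6 µM (log2 difference 0.66 ± 0.28, SE; adjusted p = 0.274, limma). TAP1, a peptide transporter subunit whose gene lies between PSMB8 and PSMB9, had 20.6, 21.6 and 19.1 FPKM at 0 µM, 29.9, 23.9 and 22.8 FPKM at 4 µM and 29.5, 29.0 and 24.5 FPKM at 6 µM (0.41 ± 0.15; adjusted p = 0.206, limma). Every treated library was above every untreated one. TAPBP was listed at 0 in 4 libraries spread over all doses, and its union value gave 0.51 ± 0.14 at 6 against 0 µM (adjusted p = 0.0641, limma).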

How the data were processed

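RNA of 9 libraries was sequenced after poly-A enrichment, per the labels. Per the submitters' processing notes the authors used Cufflinks 2.2.1, TopHat2 2.1 with Bowtie2 2.2.7, Trimmomatic, R 4.0.3 and SAMtools 1.9. The deposited files hold, for each library, transcripts assembled separately, with FPKM per transcript (other numbers in the same text column, such as coverage, served only for relative depth). The labels name GRCh37, but 90.7% of 162914 distinct assembled introns matched annotated positions on GRCh38 and 0.667% on GRCh37, so GRCh38 was used.

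In Python 3.11.15 with pandas 2.3.3, spliced transcripts took the name of the same-strand gene whose introns they shared in GENCODE release 44; 97.3% of 193769 were named. Single-exon transcripts were used where at least 50% lay in 1 gene not assembled with introns. Locations of genes and promoter sequences come from RefSeq (GRCh38.p14). Genes whose mean FPKM was 1 or more were tested in limma 3.58.1 (R 4.3.3) on log2(FPKM + 1), a scale that understates changes of low genes, with all 9 libraries, a trend in the prior variance, 6 residual degrees of freedom and Benjamini-Hochberg adjustment over all genes at 0.05. The fit was tested on simulated data.

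Members and lists were chosen with earlier results of these data known. Levels in every library are given for the catalytic and immunoproteasome subunits, the 5 largest rises and 5 largest falls at 6 against 0 µM, members listed at 0 in some libraries, and the 2 highest and 2 lowest means; PSME1 and PSME3 were added after their values were seen, as were UBB and TAP1 from the lists. Some genes of the lists, and the results that rest on them, are not reported here. Libraries with the same replicate number share a date in the sample descriptions at all doses, so the numbers pair the libraries. Deviations from the dose means of same-numbered libraries correlated across genes at 0.102 to 0.147 between 6 and 4 µM and at -0.00669 to 0.0587 between a treated dose and 0 µM. Alternatives were the consensus and union exon values, a pseudocount of 0.1, other filters, TPM, median-of-ratios scaling, the block and leaving out each library.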

Additional observations from a re-analysis of the deposited data

How the results depend on the processing

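Of the alternatives run, none called a proteasome gene by summed FPKM. With the replicate block the calls over all genes fell to 4, 2 and 1 (6 against 0, 4 against 0 and 6 against 4 µM), and the count of proteasome genes called was 0 as without it. The 38 calls over all genes at 6 against 0 µM became 511 by the consensus and 720 by the union exon value, 76 with a filter of 5 FPKM, 24 with none, 18 with TPM and 15 to 71 without 1 library (11 to 661 by the union exon value). The 8 at 4 against 0 µM became 5 with that filter and 4 to 25 without 1 library, and the 7 at 6 against 4 µM became 2 with that filter, 4 with TPM and 2 to 13 without 1 library. By the union exon value 1 gene was called higher at 6 against 0 µM (PSMB8), likewise 1 with median-of-ratios scaling, while with the block 1 was called lower (PSMC3). By the union exon value, leaving out each library in turn gave 0 to 1 higher and 0 to 1 lower. PSMB8 passed in 0 of these 9 fits, so the gene called higher there was another member. PSMC3 passed in 1 of the 9. TPM, where replicate 3 at 0 µM has a total of 1061110 FPKM and the others 587999 to 689699, shifted the median difference of all genes to 0.31 at 4 and 0.23 at 6 against 0 µM. That of the 48 genes was then 0.34 and 0.21, or 0.31 and 0.19 with the union exon value. With that shift, TPM turned the sign at 6 against 0 µM of PSMA7 (0.28, union 0.17), PSMB4 (0.069, union 0.23), PSMB6 (0.14, union 0.085), PSMB9 (0.10, union 0.11), PSMD5 (0.0835) and, by the union value, PSMD11 (0.058). None of these differences had passed the test. Without TPM, signs turned with the union exon value for PSMA3 (-0.021), PSMB2 (-0.37, median-of-ratios -0.30, TPM -0.076), PSMB7 (-0.012), PSMD9 (0.10, median-of-ratios 0.16, TPM 0.39), PSME4 (-0.23, median-of-ratios -0.17) and PSMF1 (0.29, median-of-ratios 0.35, TPM 0.58), equally with and without the block. The consensus exon value gave -7.4e-05 for PSMB7, -0.19 for PSME4 and 0.31 for PSMF1. Median-of-ratios scaling gave 0.019 for PSMA7. Leaving out each library in turn, the difference at 6 against 0 µM ran from -0.12 to 0.68 for PSMA3 (union -0.11 to 0.04), from -0.16 to 0.11 for PSMA7 (union -0.23 to 0.04), from -0.11 to 0.75 for PSMB2 (union -0.53 to -0.17), from -0.51 to -0.09 for PSMB4 (union -0.14 to 0.027), from -0.30 to 0.014 for PSMB6 (union -0.36 to -0.029), from -0.10 to 0.15 for PSMB7 (union -0.13 to 0.14), from -1.48 to 1.01 for PSMB9 (union -1.27 to 0.85), from -0.10 to 0.36 for PSMB10 (union 0.13 to 0.28), from 0.29 to 0.53 for PSMD7 (union -0.10 to 0.33), from -0.98 to -0.46 for PSMD9 (union 0.01 to 0.26), from 0.06 to 0.50 for PSME4 (union -0.29 to -0.15) and from -0.82 to 0.17 for PSMF1 (union 0.22 to 0.34). By the union value it ran from -0.0071 to 0.24 for PSMB5. The cause of these changes was not tested. The files give no counts, so the depth behind each FPKM is unknown.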

Other observations

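The 48 genes lie unevenly over the genome. Chromosome 14 holds 7 of them (14.6%), PSMA3, PSMA6, PSMB5, PSMC1, PSMC6, PSME1 and PSME2, where it holds 3.02% of the protein-coding genes in RefSeq. Chromosome 17 holds 8 (16.7%), beside 5.83% of protein-coding genes, among them PSMD11, PSMD12, PSME3 and PSMB6. RefSeq lists 52 pseudogenes named for 21 of the 48 genes, and 0 of them were assembled in these libraries. Reads that a subunit shares with such a copy could be placed on either, and how the counting treated them was not tested.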
